A study of Saccharomyces cerevisiae with 68 samples.

Results

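Cytosolic ribosomal protein genes encode the protein part of the ribosomes that translate nuclear messages. In this series they were taken as every Saccharomyces cerevisiae gene whose symbol is RPS or RPL with a number and an optional A or B, or RPP with 0, 1 or 2 and an optional A or B. This rule found 128 of the 5449 S. cerevisiae genes read by the arrays. There were 52 RPS genes of the small subunit, 70 RPL genes of the large subunit and 6 RPP genes, 19 of the 128 single-copy and 109 with an A or B in the symbol. In the yeast annotation 138 symbols match the pattern, and the other 10 were not analysed here. RPP1, which encodes a protein of RNase P and RNase MRP and not of the ribosome, also matches the pattern and stays in the counts. RPL41A was dimmer than the filter on signal in nascent RNA, so 127 genes were tested there and 128 in total RNA.

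The arrays measured RNA made during a pulse of 6 min with 5 mM 4-thiouracil (nascent RNA) and total RNA, in YPD cultures grown at 30 °C to an OD600 of 0.8. All strains derive from FY406, and all but the wild type (WT) lack a subunit of SAGA, a coactivator of RNA polymerase II. They are spt20 and spt7, which lack core subunits that hold the complex together, ubp8 without the histone H2B deubiquitinase, gcn5 without the histone acetyltransferase, spt3 and spt8 without subunits that contact the TATA-binding protein, and the double mutants ubp8_gcn5 and spt3_gcn5. Labelled Schizosaccharomyces pombe cells were mixed in at a cell ratio of 3 S. cerevisiae to 1 S. pombe before extraction. Each deletion strain has 2 biological replicates per the labels, yet 5 of the 8 strains have 4 arrays per fraction, so the p-values may measure technical spread in part.

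Most yeast ribosomal proteins are encoded by a pair of paralogous genes, called A and B, whose proteins are identical or nearly so. Their promoters are bound by Rap1, Fhl1, Ifh1 and Sfp1, and their transcription, a large part of the cell's messenger RNA synthesis, follows growth through the TORC1 and protein kinase A pathways. The messages are abundant and stable, and several genes, among them RPS14B and RPL22B, are repressed by their own products through their introns or transcripts.

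Values are log2 signals. A relative value is the log2 signal minus the array's median over the S. cerevisiae genes tested, and a spike-scaled value is the log2 signal minus the array's median over the S. pombe genes. Going by the S. pombe genes, the arrays fall into 2 sets, the second made up of WT replicates 7 and 8 and the spt3_gcn5 arrays (rank correlation with the others at most 0.79 in nascent and 0.878 in total RNA, against at least 0.891 and 0.964 within a set). Each strain was therefore set against the WT arrays of its own set, WT replicates 3 to 6 for 7 strains and WT replicates 7 and 8 for spt3_gcn5. Comparisons of those 7 strains share their WT arrays. Genes were called at an adjusted p under 0.05 in limma, with Benjamini-Hochberg adjustment over 4086 genes. WT replicates 1 and 2, the nascent arrays of spt7 and the arrays labelled spt20 total replicates 1 and 3 were left out. In the last 2 the relative signal of SPT20 was -0.70 and -0.55, against -6.84 and -7.67 in spt20 total replicates 2 and 4 and -0.78 to -0.69 in the WT arrays, so they go against their label. Their median over the ribosomal protein genes, 3.54 and 3.38, also lay above the 3.20 and 3.23 of replicates 2 and 4. In every array used, the deleted genes lay below all WT arrays of the set. The number of arrays, not a read depth, limits the precision.

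Wild-type S. pombe cells were added to all samples, and their own ribosomal protein genes (14 measured) give a measure beside each result. Their level relative to other S. pombe genes moved between strains, by -0.80 to 0.12 in nascent and -0.85 to 0.67 in total RNA. Its part in the changes of the S. cerevisiae genes was not tested. Changes less this movement (less S. pombe, for short) are given for each strain as an alternative chosen after seeing the data, beside the share of all genes that then lay outside the WT arrays. This alternative rests on the 14 genes. The 131 brightest S. pombe genes moved by -0.61 to 0.0 in nascent and by only -0.35 to 0.13 in total RNA. Changes less those 131 genes were not tested.

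**Figure D1:**
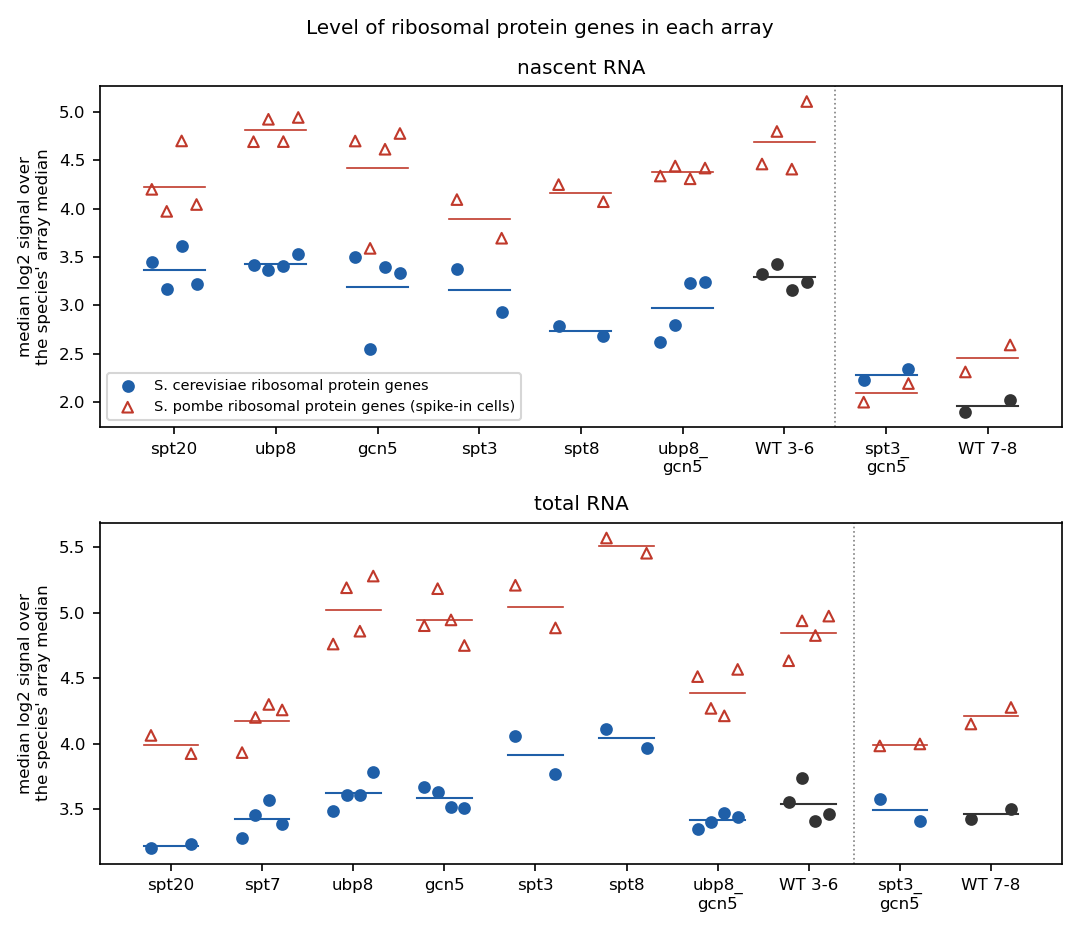
Each filled circle is the median relative log2 signal of the S. cerevisiae ribosomal protein genes in 1 array (WT in black), and each triangle the same for 14 S. pombe ribosomal protein genes from the spike-in cells, over that species' array median, with group means as lines; the dotted line parts the 2 array sets. Both spt8 arrays lie below all WT arrays of their set in nascent RNA and above them in total RNA, and the S. pombe genes move the same way in that strain; the rise in total RNA turns to -0.19 less S. pombe and to -0.04 after quantile normalization.

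Loss of Spt8 gave many calls in each fraction, with opposite directions in nascent and total RNA. These directions did not hold less the 14 S. pombe genes (median changes -0.01 and -0.19). In total RNA the 131 brightest S. pombe genes moved less than the 14, as given below. In nascent RNA the genes' median relative level was 2.78 and 2.68 in the spt8 arrays, against 3.33, 3.43, 3.15 and 3.24 in WT replicates 3 to 6, and in total RNA 4.11 and 3.97 against 3.56, 3.74, 3.41 and 3.46. The spt8 arrays lay outside the WT range in both fractions. Of 127 genes, 81 fell and 0 rose in nascent RNA (median change -0.54), where 26.2% of all genes tested were called lower and 16.1% higher. The fallen genes comprised 33 of 52 RPS genes, 45 of 69 RPL genes and 3 of 6 RPP genes, or 7 of 19 single-copy genes (median -0.40) and 74 of 108 A or B genes (median -0.57). In total RNA 111 of 128 rose and 0 fell (median 0.48, but -0.19 less S. pombe and -0.04 after quantile normalization, where 14 rose and 16 fell), with 25.5% of all genes called higher and 14.7% lower. They comprised 46 RPS, 60 RPL and 5 RPP genes. Without spt8 nascent replicate 1 or 2 the nascent count was 33 or 9, so it rests on both arrays, and against all 6 WT arrays without the array set it was 0.

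RPS1A, whose protein lies on the platform side of the small subunit, had nascent relative levels of 1.46 and 1.40 in spt8, against 2.70, 2.91, 2.66 and 2.51 in WT. Its change was -1.26 ± 0.24 (SE; limma adjusted p = 0.000488). RPS10B, a protein of the head of the small subunit, was at 1.73 and 1.55 in spt8, against 2.86, 3.19, 2.91 and 2.68 in WT (-1.27 ± 0.30, adjusted p = 0.00237). The groups did not overlap for either gene. RPL39, a small protein at the exit tunnel, was at 2.00 and 1.79 in spt8, against 2.99, 3.42, 3.19 and 2.97 in WT (-1.25 ± 0.33, adjusted p = 0.00477). The call of RPL39 was lost without spt8 nascent replicate 2 (adjusted p = 0.0664), and against all 6 WT arrays its change turned to 0.22.

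The leading rises in total RNA of spt8 were RPL43A, RPS21B and RPL14B. RPL43A, a large subunit gene, was at 4.16 and 4.08 in spt8, against 3.30, 3.43, 3.12 and 3.18 in WT (0.87 ± 0.13, limma adjusted p = 1.46e-05). RPS21B, of the small subunit, was at 4.82 and 4.49 in spt8, against 3.85, 4.11, 3.67 and 3.77 in WT (0.80 ± 0.14, adjusted p = 5.75e-05). All spt8 arrays lay above all WT arrays for both. RPL14B (adjusted p = 5.03e-05) was read by a probe set shared with other transcripts, so its copy is uncertain. RPP0, the base of the ribosomal stalk that carries the P1 and P2 proteins, fell in nascent RNA (-0.40 ± 0.16, adjusted p = 0.0497) and rose in total RNA (0.59 ± 0.13, adjusted p = 0.000706), and is named for its role after its values were seen.

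The ribosomal protein genes of S. pombe (14 measured) moved the same way in these samples, at 4.07 to 4.25 in spt8 against 4.41 to 5.11 in WT in nascent RNA, and at 5.45 to 5.57 against 4.63 to 4.97 in total RNA. Their changes were -0.53 and 0.67. Less these, the median change of the S. cerevisiae genes was -0.01 in nascent RNA, with 8 genes above and 4 below all WT arrays (49.5% and 1.81% of all genes). In total RNA it was -0.19, with 0 above and 52 below (0.294% and 82.1% of all genes). The 131 brightest S. pombe genes changed by the same -0.53 in nascent RNA of spt8, but by only 0.13 in total RNA. Changes less those 131 genes were not tested, so the turn in total RNA is given for the 14 genes only. Of all S. pombe genes tested, 58.9% passed the same threshold in nascent and 26.5% in total RNA of spt8, where the other strains ranged from 0.0% to 60.2% (spt3) in nascent and 0.8% to 44.7% (spt7) in total RNA.

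The difference between the nascent and the total change was tested in 1 fit over both fractions, with 4015 genes. In spt8 the nascent change was lower than the total one in 124 of 127 genes and higher in 0 (median difference -1.01), where 30.4% of all genes were called lower and 15.9% higher. Less S. pombe, the median changes in spt8 were -0.01 in nascent and -0.19 in total RNA, so this direction did not hold against those 14 genes. The 131 brightest S. pombe genes changed by -0.53 in nascent and 0.13 in total RNA of spt8. RPL6B, of the large subunit, had a difference of -1.27 ± 0.22 (limma adjusted p = 3.3e-05). RPP1, RPL15B and RPL22B were the 3 that did not pass. In spt3 35 genes were lower and 0 higher (median -0.52; 18.4% of all genes lower, 10.8% higher), and this count was 1 without spt3 nascent replicate 2 or spt3 total replicate 1, 77 without spt3 nascent replicate 1, 20 without WT nascent replicate 4 and 21 without WT total replicate 5. In spt3_gcn5 RPL22B alone differed, with 0.74 ± 0.17 (adjusted p = 0.019; 0.299% of all genes higher, 0.249% lower), a call lost without any 1 nascent array of its set, WT total replicate 7 or spt3_gcn5 total replicate 2. No gene passed in spt20, ubp8, gcn5 or ubp8_gcn5 (limma), while 47, 0, 0 and 2 had an unadjusted p under 0.05 in them. Of all genes, 0.0% passed in spt20, ubp8 and gcn5 and 19.1% in ubp8_gcn5. The ubp8_gcn5 values used here are the deposited ones. In its nascent arrays these appear divided, by probe set, by 1.85 or 2.4975, constants that differ by 0.433 on the log2 scale. A share with the constants undone is not given, so the 19.1% does not show that ubp8_gcn5 differs between fractions. Without WT nascent replicate 4, 1 gene passed in ubp8_gcn5. In spt3 the medians less S. pombe were 0.61 in nascent and 0.14 in total RNA, so its lower direction did not hold either.

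Loss of Spt3, the partner of Spt8 in contacting the TATA-binding protein, gave fewer calls in nascent RNA. The genes' median relative level was 3.37 and 2.94 in the spt3 nascent arrays, against 3.33, 3.43, 3.15 and 3.24 in WT, so 1 array lay within the WT range. There 14 genes fell and 1 rose (median -0.19, but 0.61 less S. pombe; 19.4% of all genes lower, 17.1% higher). In total RNA the level was 4.06 and 3.77 in spt3, against 3.56, 3.74, 3.41 and 3.46 in WT, and 92 genes rose while 4 fell (median 0.34, but -0.03 after quantile normalization; 27.5% of all genes higher, 19.6% lower). Risen in total RNA were 40 RPS, 47 RPL and 5 RPP genes, 17 of the 19 single-copy genes among them. Much of this rested on 1 array. Without spt3 total replicate 1 the count of calls was 8 and the median change 0.20, and in nascent RNA the count was 32 without replicate 1, 2 without replicate 2 and 9 without WT replicate 4.

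RPS31, which encodes ubiquitin fused to a small subunit protein, was the 1 riser in nascent RNA, at 4.08 and 3.88 in spt3, against 3.59, 3.60, 3.31 and 3.61 in WT (0.45 ± 0.17, limma adjusted p = 0.0382). It also rose in total RNA, at 4.81 and 4.30 in spt3, against 3.90, 4.12, 3.82 and 3.81 in WT (0.64 ± 0.14, adjusted p = 0.000554; 0.39 and 0.0796 without spt3 total replicate 1). Arrays of spt3 lay above all WT arrays in both fractions. RPS1A went the other way in nascent RNA, at 1.97 and 1.29 in spt3, against 2.70, 2.91, 2.66 and 2.51 in WT (-1.06 ± 0.24, adjusted p = 0.00173). RPS10B (-1.09 ± 0.30, adjusted p = 0.00713) and RPS19A (-0.96 ± 0.30, adjusted p = 0.0148) also fell. Without spt3 nascent replicate 2 the calls of these 4 genes in nascent RNA were lost, that of RPS31 also without spt3 replicate 1 or WT replicate 5, and against all 6 WT arrays the changes of RPS10B and RPS19A turned to 0.0721 and 0.18.

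RPS9A, whose protein lies near the entry of the message channel, fell in total RNA of spt3 while most of the other genes rose. It was at 0.96 and 1.17 in spt3, against 1.55, 1.92, 1.29 and 1.84 in WT (-0.58 ± 0.12, limma adjusted p = 0.000191). The groups did not overlap. The other 3 that fell included RPS1A (-0.26, adjusted p = 0.016) and RPL22B (-0.23, adjusted p = 0.0397). The call of RPS1A was lost without WT replicate 4 or spt3 replicate 1, and that of RPL22B without WT replicate 4 or 6 or either spt3 array. RPL43A (0.68 ± 0.13, adjusted p = 0.000135) and RPS21B (0.65 ± 0.14, adjusted p = 0.000403) led the rises, as in spt8. Those of S. pombe changed by -0.80 in nascent and 0.20 in total RNA of spt3. Less these, the median change was 0.61 in nascent RNA, with 96 genes above and 0 below all WT arrays (67.2% and 0.979% of all genes), and 0.14 in total RNA, with 39 above and 8 below (6.29% and 26.2%).

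Set against each other, with 2 arrays each, spt8 and spt3 gave few calls, which does not show that they are alike. In nascent RNA 0 genes passed (limma, median of spt8 minus spt3 -0.39), against 3.18% of all genes in either direction. At an unadjusted p under 0.05 there were 37, with no share of all genes given at that threshold. In total RNA 5 were higher in spt8 and 0 lower (median 0.11, 11.9% of all genes higher, 10.9% lower). Less S. pombe, the median changes against WT were -0.01 in spt8 and 0.61 in spt3 in nascent RNA. In total RNA they were -0.19 and 0.14, where the direction turned. The count in total RNA was 9 without spt3 replicate 1 and 2 without spt3 replicate 2 or spt8 replicate 1.

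**Figure D2:**
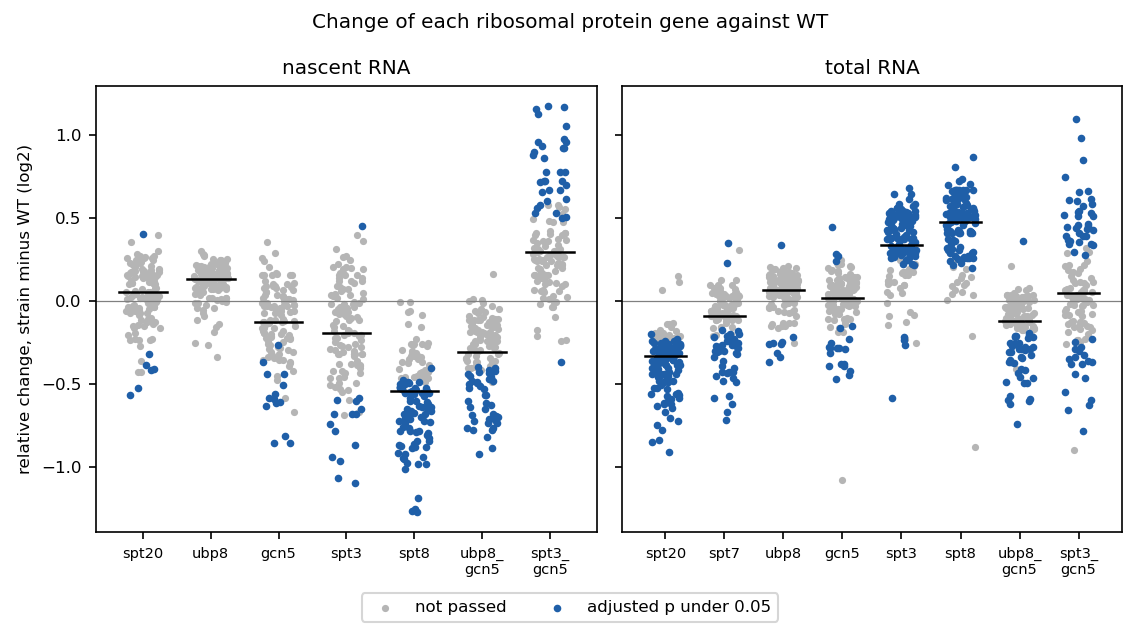
Each point is 1 ribosomal protein gene, placed at its relative log2 change in a strain against WT of the same array set, with genes past an adjusted p of 0.05 in blue and the median of the genes as a black line. In spt8 the median is -0.54 in nascent and 0.48 in total RNA, and in spt20 0.05 and -0.33; less S. pombe they are -0.01 and -0.19 in spt8 and 0.52 and 0.52 in spt20.

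Without the core subunit Spt20, few genes changed relative to others in nascent RNA and most were lower in total RNA. That direction turned less the 14 S. pombe genes, which changed by -0.85 in total RNA. The 131 brightest S. pombe genes changed by -0.35 there, near the median change of -0.33 of the S. cerevisiae genes. Changes less those 131 genes were not tested. The median relative level was 3.45, 3.17, 3.61 and 3.22 in spt20 nascent arrays, against 3.33, 3.43, 3.15 and 3.24 in WT, which overlap. Of 127 genes, 6 fell and 1 rose in nascent RNA (median 0.05), where 21.5% of all genes tested were lower and 24.6% higher. The count was 4 without spt20 nascent replicate 4, WT replicate 3 or WT replicate 4. In total RNA the level was 3.21 and 3.23 in spt20, below 3.56, 3.74, 3.41 and 3.46 in WT. There 98 of 128 genes fell and 0 rose (median -0.33, but 0.52 less S. pombe; 33.1% of all genes lower, 27.7% higher), 42 of them RPS, 53 RPL and 3 RPP genes. Without spt20 total replicate 2 or 4 the count was 59 or 62.

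RPS7B, a small subunit gene, led the falls in total RNA. It was at 2.61 and 2.62 in spt20, against 3.51, 3.74, 3.38 and 3.47 in WT (-0.91 ± 0.08, limma adjusted p = 6.92e-10). In nascent RNA it was at 2.83, 2.75, 2.92 and 2.65 in spt20, against 3.30, 3.51, 3.18 and 3.27 in WT (-0.52, adjusted p = 0.00448). No spt20 array reached a WT array in either fraction. RPS26B, whose protein lines the exit of the message channel, was at 2.38 and 2.32 in total RNA of spt20, against 3.17, 3.43, 3.08 and 3.11 in WT (-0.85 ± 0.11, adjusted p = 3.41e-07). RPS9A fell in both fractions, with -0.84 ± 0.12 in total (adjusted p = 6.86e-07) and -0.56 in nascent RNA (adjusted p = 0.00229; 0.13 against all 6 WT arrays). RPL4B of the exit tunnel fell in nascent RNA (-0.41, adjusted p = 0.0196; call lost without spt20 or WT replicate 4), and RPS21B was the 1 riser there (0.41 ± 0.17, adjusted p = 0.0466), a call that was lost in 5 of the fits that left out 1 array. In S. pombe the ribosomal protein genes changed by -0.47 in nascent and -0.85 in total RNA of spt20, at 3.92 to 4.06 in spt20 total arrays against 4.63 to 4.97 in WT. Less these, the median change was 0.52 in both fractions, with 69 genes above and 0 below all WT arrays in nascent RNA (27.4% and 1.54% of all genes) and 107 above and 0 below in total RNA (85.1% and 2.23%).

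Loss of Spt7, the other core subunit, was read in total RNA. The median level was 3.28, 3.46, 3.57 and 3.39 in spt7, against 3.56, 3.74, 3.41 and 3.46 in WT, which overlap. Of 128 genes, 44 fell and 2 rose (median -0.09, but 0.58 less S. pombe), where 31.7% of all genes were lower and 34.0% higher. The falls were thus near the share of all genes. Of the 44, 41 have an A or B in the symbol, as do 109 of the 128. RPS7B was at 2.67, 2.87, 2.89 and 2.81 in spt7, against 3.51, 3.74, 3.38 and 3.47 in WT (-0.71 ± 0.07, limma adjusted p = 1e-09). RPL22B, a large subunit gene whose own protein represses it, was at 1.56, 1.52, 1.55 and 1.64 in spt7, against 2.20, 2.33, 2.10 and 2.30 in WT (-0.67, adjusted p = 1.92e-08). RPL17B of the exit tunnel was at 2.92, 3.11, 3.13 and 3.04 in spt7, against 3.63, 3.91, 3.51 and 3.63 in WT (-0.62 ± 0.07, adjusted p = 1.59e-08). All 4 spt7 arrays lay below the WT range for each of the 3 genes. RPL43A (0.35 ± 0.11, adjusted p = 0.00556) and RPL9B (0.23 ± 0.10, adjusted p = 0.0486) were the 2 that rose, and the call of RPL9B was lost without any 1 of WT replicates 3, 5 and 6 and spt7 replicates 2, 3 and 4. In spt7 samples the S. pombe ribosomal protein genes changed by -0.67, and less this the median change was 0.58, with 109 genes above and 0 below all WT arrays (74.8% and 2.13% of all genes). The 131 brightest S. pombe genes changed by -0.34 in spt7, beside the median change of -0.09.

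Between the 2 core mutants, 48 genes were higher and 2 lower in spt7 than in spt20 in total RNA (median of spt7 minus spt20 0.24; 21.1% of all genes higher, 12.8% lower). Less S. pombe, the median changes against WT lay close together, at 0.58 in spt7 and 0.52 in spt20. This contrast rests on the 2 spt20 arrays, and the count was 7 without spt20 replicate 2, 15 without spt20 replicate 4 and 26 without spt7 replicate 3.

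Loss of the deubiquitinase Ubp8 gave the fewest calls. In nascent RNA the median level was 3.42, 3.37, 3.40 and 3.53 in ubp8, against 3.33, 3.43, 3.15 and 3.24 in WT. There 0 genes passed (limma, median 0.13), against 11.7% of all genes in either direction. At an unadjusted p under 0.05 there were 2, with no share of all genes given at that threshold. In total RNA the median level was 3.49, 3.61, 3.61 and 3.79 in ubp8, against 3.56, 3.74, 3.41 and 3.46 in WT. Both fractions overlap WT. There 8 genes fell and 1 rose (median 0.07, but -0.11 less S. pombe; 18.3% of all genes lower, 17.2% higher), led by RPL4B (-0.37, adjusted p = 0.000656), RPP1 (-0.34, adjusted p = 5.54e-05) and RPS14B (-0.26, adjusted p = 0.00728), with RPL43A upward (0.34, adjusted p = 0.0156). Those of S. pombe changed by 0.12 in nascent and 0.18 in total RNA. Less these, the median change was 0.01 in nascent RNA, with 0 genes above or below all WT arrays (1.52% and 3.62% of all genes), and -0.11 in total RNA, with 0 above and 6 below (1.64% and 9.69%). Leaving out WT nascent replicate 5 gave 1 call in nascent RNA.

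Without the acetyltransferase Gcn5, 14 of 127 genes fell in nascent RNA and 0 rose (median -0.12, but 0.15 less S. pombe; 16.9% of all genes lower, 18.1% higher). The median level was 3.50, 2.54, 3.39 and 3.33 in gcn5, against 3.33, 3.43, 3.15 and 3.24 in WT, and replicate 2 stood apart from the other gcn5 arrays. RPL12A, a large subunit protein next to the stalk, was at 2.42, 1.63, 2.51 and 2.45 in gcn5, against 2.99, 3.33, 2.99 and 2.95 in WT (-0.81 ± 0.17, limma adjusted p = 0.000672). RPS10B was at 2.39, 1.09, 2.61 and 2.14 in gcn5, against 2.86, 3.19, 2.91 and 2.68 in WT (-0.85 ± 0.25, adjusted p = 0.00899). The gcn5 arrays lay below all WT arrays for both. RPS19A, a small subunit protein whose human counterpart is mutated in Diamond-Blackfan anaemia, changed by -0.85 ± 0.24 (adjusted p = 0.0083). Without gcn5 replicate 2 the calls of RPS10B and RPS19A were lost (adjusted p = 0.0558 and 0.0516), and against all 6 WT arrays their changes turned to 0.32 and 0.29. The count was 23 without gcn5 replicate 1 and 8 without WT replicate 4.

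In total RNA of gcn5 the median level was 3.67, 3.63, 3.52 and 3.51, against 3.56, 3.74, 3.41 and 3.46 in WT, and 17 genes fell while 4 rose (median 0.02, but -0.08 less S. pombe; 28.3% of all genes lower, 26.9% higher). RPL12A (-0.47, limma adjusted p = 2.05e-05), RPL17B (-0.42, adjusted p = 1.33e-05) and RPS14B (-0.39, adjusted p = 5.43e-05) led the falls. RPS14B, the minor copy for a protein of the small subunit platform, was at 2.20, 2.28, 2.13 and 2.07 in gcn5, against 2.57, 2.76, 2.42 and 2.50 in WT. RPL43A (0.45, adjusted p = 0.000866) and RPL15B (0.28, adjusted p = 0.00087) rose. Those of S. pombe changed by -0.27 in nascent and 0.10 in total RNA. Less these, the median change was 0.15 in nascent RNA, with 3 genes above and 0 below all WT arrays (8.69% and 0.734% of all genes), and -0.08 in total RNA, with 0 above and 8 below (6.71% and 16.3%). Between the enzyme mutants, 9 genes were lower and 0 higher in gcn5 than in ubp8 in nascent RNA (median of gcn5 minus ubp8 -0.25; 11.6% of all genes lower, 12.4% higher), a count of 2 without gcn5 replicate 2, 23 without gcn5 replicate 1 and 16 without gcn5 replicate 3. In total RNA 2 were higher and 4 lower (19.3% and 17.0% of all genes), a count of 11 without gcn5 replicate 1 and 3 without gcn5 replicate 3. Less S. pombe, the median changes against WT were 0.15 in gcn5 and 0.01 in ubp8 in nascent RNA, where the direction turned. In total RNA they were -0.08 and -0.11.

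Without both enzymes, 42 genes fell in nascent and 41 in total RNA, the count in total RNA near the share of all genes given below. In ubp8 0 and 8 genes fell and in gcn5 14 and 17, to be read beside the shares given for those strains. The double mutant was tested against its single mutants in total RNA only. In nascent RNA of ubp8_gcn5 the median level was 2.62, 2.80, 3.23 and 3.24, against 3.33, 3.43, 3.15 and 3.24 in WT, with 2 arrays below WT and 2 within it. There 42 genes fell and 0 rose (median -0.30, but 0.01 less S. pombe and 0.04 against all 6 WT arrays), where 22.8% of all genes were lower and 32.5% higher. Of the 42, 39 were A or B genes, as are 109 of the 128. In these nascent arrays of ubp8_gcn5 the deposited S. cerevisiae values appear divided by 1 of 2 constants, 1.85 or 2.4975. Of the 128 genes 126 carry 2.4975, against 2629 of all 5498 S. cerevisiae probe sets, and the other 2869 probe sets carry 1.85. On the log2 scale the constants differ by 0.433, so most of the 128 genes are lowered against the genes with 1.85. With the constants undone 24 genes fell and 0 rose (median -0.22; 21.2% of all genes lower, 21.5% higher), so the count of falls was then near the share of all genes. Leaving out ubp8_gcn5 replicate 1 or 2 or WT replicate 4 gave counts of 21, 26 and 27. RPL12A was at 1.94, 1.96, 2.34 and 2.33 in ubp8_gcn5, against 2.99, 3.33, 2.99 and 2.95 in WT (-0.92 ± 0.17, limma adjusted p = 8e-05; -0.83 with the constants undone). RPS7B was at 2.11, 2.26, 2.69 and 2.65 in ubp8_gcn5, against 3.30, 3.51, 3.18 and 3.27 in WT (-0.88, adjusted p = 1.72e-05; -0.80 undone). The groups did not overlap for either gene. RPS26B changed by -0.82 ± 0.15 (adjusted p = 8.14e-05; -0.73 undone).

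In total RNA of ubp8_gcn5 the median level was 3.35, 3.41, 3.48 and 3.44, against 3.56, 3.74, 3.41 and 3.46 in WT, and 41 genes fell while 1 rose (median -0.12, but 0.33 less S. pombe; 33.6% of all genes lower, 28.3% higher). RPL22B was at 1.51, 1.51, 1.42 and 1.53 in ubp8_gcn5, against 2.20, 2.33, 2.10 and 2.30 in WT (-0.74, limma adjusted p = 4.01e-09). RPS26B was at 2.50, 2.54, 2.67 and 2.67 in ubp8_gcn5, against 3.17, 3.43, 3.08 and 3.11 in WT (-0.60 ± 0.09, adjusted p = 2.6e-06). RPS7B changed by -0.62 ± 0.07 (adjusted p = 1.91e-08). Arrays of ubp8_gcn5 lay below all WT arrays for the 3 genes, while RPL43A was the 1 riser (0.36 ± 0.11, adjusted p = 0.00478). The S. pombe ribosomal protein genes changed by -0.32 in nascent and -0.45 in total RNA, and less these the median changes were 0.01, with 0 genes outside the WT arrays (35.5% of all genes above and 1.47% below), and 0.33, with 30 above and 1 below (46.6% and 2.4%). The 131 brightest S. pombe genes changed by -0.21 in nascent and -0.19 in total RNA of ubp8_gcn5.

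The double mutant was also set against its single mutants in total RNA. The directions below did not hold less S. pombe, where the median changes against WT were 0.33 in ubp8_gcn5, -0.08 in gcn5 and -0.11 in ubp8. Against gcn5, 32 genes were lower and 1 higher (median of ubp8_gcn5 minus gcn5 -0.17; 20.4% of all genes lower, 15.8% higher), with counts of 16 and 20 without gcn5 replicate 1 or 2 and of 17 and 21 without ubp8_gcn5 replicate 1 or 2. Against ubp8, 54 were lower and 2 higher (median -0.20; 24.9% of all genes lower, 21.7% higher), with a count of 32 without ubp8 replicate 4.

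Loss of Spt3 and Gcn5 together was set against 2 WT arrays of the second set. The nascent median level was 2.22 and 2.34 in spt3_gcn5, above 1.90 and 2.02 in WT, and 33 genes rose while 1 fell (median 0.30, but -0.49 against all 6 WT arrays; 18.8% of all genes higher, 18.3% lower). Of the 19 single-copy genes 9 rose, with a median over the 19 of 0.53, against a median of 0.27 over A or B genes. RPL26A, a large subunit protein near the exit tunnel, was at 1.31 and 1.50 in spt3_gcn5, against 0.20 and 0.28 in WT (1.17 ± 0.22, limma adjusted p = 0.000112). RPL22A, the major copy of its pair, was at 3.18 and 3.02 in spt3_gcn5, against 1.90 and 1.96 in WT (1.17 ± 0.24, adjusted p = 0.000349). RPS1A was at 1.39 and 1.74 in spt3_gcn5, against 0.42 and 0.40 in WT (1.15 ± 0.28, adjusted p = 0.00192). None of the 3 genes overlapped between groups, and RPP1 of RNase P was the 1 that fell (-0.37 ± 0.14, adjusted p = 0.0374), a call lost without any 1 of the 4 arrays. The count was 15 without WT replicate 7, 21 without WT replicate 8, 22 without spt3_gcn5 replicate 1 and 20 without spt3_gcn5 replicate 2, and against all 6 WT arrays the changes of RPL26A and RPS1A turned to -1.0 and -0.37.

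In total RNA of spt3_gcn5 genes were called in both directions, the rises near the share of all genes and the falls below it. The median level was 3.58 and 3.41 in spt3_gcn5, against 3.43 and 3.50 in WT, and 36 genes rose while 19 fell (median 0.05; 26.7% of all genes higher, 31.5% lower). RPL26A was at 2.97 and 2.69 in spt3_gcn5, against 1.72 and 1.74 in WT (1.10, limma adjusted p = 4.64e-08; -0.26 against all 6 WT arrays), while its paralogue RPL26B was at 2.60 and 2.50 in spt3_gcn5, against 3.32 and 3.10 in WT (-0.66, adjusted p = 0.000162). RPS14B was at 2.99 and 2.63 in spt3_gcn5, against 1.82 and 1.83 in WT (0.98, adjusted p = 5.48e-09), where in gcn5 it had fallen. RPS31 (0.85 ± 0.16, adjusted p = 6.39e-05) and RPP0, at 5.13 and 4.91 in spt3_gcn5 against 4.40 and 4.43 in WT (0.60 ± 0.15, adjusted p = 0.00107), also rose. RPS10B was at 0.74 and 0.98 in spt3_gcn5, against 1.75 and 1.53 in WT (-0.78, adjusted p = 0.00102), and RPL39 at 0.90 and 1.14, against 1.42 and 1.85 (-0.62, adjusted p = 0.000101). The S. pombe ribosomal protein genes changed by -0.36 in nascent and -0.22 in total RNA. Less these, the median change was 0.65 in nascent RNA, with 123 genes above and 0 below the WT arrays (56.1% and 11.0% of all genes), and 0.27 in total RNA, with 86 above and 9 below (52.5% and 25.4%).

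Across strains, RPS7B and RPS28B, both of the small subunit, were called lower in nascent RNA of 5 strains (spt20, gcn5, spt3, spt8 and ubp8_gcn5), with changes of -0.44 to -0.88 for RPS7B and -0.41 to -0.92 for RPS28B. These comparisons share WT replicates 3 to 6. RPL43A was called higher in total RNA of 6 strains (spt7, ubp8, gcn5, spt3, spt8 and ubp8_gcn5, 0.34 to 0.87), again on shared WT arrays. RPL22B was called lower in total RNA of spt20, spt7, ubp8, gcn5, spt3 and ubp8_gcn5 (-0.22 to -0.78). RPP1 was called lower in total RNA of spt20, spt7, ubp8, gcn5, ubp8_gcn5 and spt3_gcn5 (-0.20 to -0.48). In nascent RNA 29 of the 127 genes tested passed in no strain (8.52% of all genes tested), and in total RNA 1 of 128 (1.79%).

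The genes that differ in level between the fractions were compared in WT. Over both array sets, 125 of 127 genes were lower relative to other genes in nascent than in total RNA and 0 higher (median -0.62; 24.8% of all genes lower, 7.95% higher). The sets gave different values. In WT replicates 3 to 6 the median difference was -0.25 and 0 genes passed (limma), against 1.39% of all genes in either direction. At an unadjusted p under 0.05 there were 52, with no share of all genes given at that threshold. In WT replicates 7 and 8 the median difference was -1.37, with 125 lower and 1 higher (31.0% of all genes lower, 18.3% higher). Over both sets RPS23B (-0.98), RPL39 (-0.97) and RPS10A (-0.92) were lowest, and RPP1 (0.14, adjusted p = 0.0727), RPS9A (-0.13, adjusted p = 0.345) and RPL22B (-0.18, adjusted p = 0.0366) highest. The second set carries this order, with RPS23B at -2.47, RPL39 at -2.89 and RPS10A at -2.46 in WT replicates 7 and 8 (the 3 lowest there). In WT replicates 3 to 6 they were at -0.24, -0.01 and -0.15, at ranks 77, 126 and 112 of 127 from the lowest. The S. pombe ribosomal protein genes were at 4.41 to 5.11 in nascent and 4.63 to 4.97 in total RNA of the first set, and at 2.31 to 2.59 and 4.15 to 4.28 in the second.

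Against the spike-in, nascent RNA of the genes was lower in 4 strains (spt20, spt3, ubp8_gcn5 and spt3_gcn5), where most other genes were lower too, except in ubp8_gcn5 with its constants undone. The median spike-scaled level was 4.04 ± 0.37 in spt20 (SD, n = 4), 2.98 ± 0.11 in ubp8_gcn5 (n = 4) and 3.87 ± 0.39 in spt3 (n = 2), against 4.79 ± 0.39 in WT replicates 3 to 6. In spt20 125 of 127 genes fell (median change -0.77, -0.80 over all genes, 79.4% of all genes lower), and in spt3 118 fell (-0.97, -0.80 over all genes, 70.6% lower). In ubp8_gcn5 127 fell (-1.79, 97.0% of all genes lower), or 48 with the constants undone (-0.48, -0.26 over all genes, 23.0% lower). The median spike-scaled level was 1.49 ± 0.09 in spt3_gcn5 (SD, n = 2), against 4.40 ± 0.05 in WT replicates 7 and 8, and all 127 genes fell (-2.93, -3.27 over all genes, 100.0% lower). In gcn5 12 fell (-0.27, 9.42% of all genes lower), in spt8 2 (-0.04, 0.45 over all genes, 1.49% lower) and in ubp8 0 passed (limma; 0.15, 1.15% of all genes in either direction).

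In total RNA the genes fell in 4 strains against the spike-in and rose in 1. The median spike-scaled level was 3.80 ± 0.10 in spt20 (SD, n = 2), 4.04 ± 0.12 in spt7 and 4.29 ± 0.20 in ubp8_gcn5 (n = 4 each), against 4.94 ± 0.18 in WT replicates 3 to 6 (n = 4). In spt20 127 of 128 fell (-1.145, -0.86 over all genes, 83.6% lower), in spt7 127 (-0.87, -0.77 over all genes, 85.0% lower) and in ubp8_gcn5 126 (-0.64, -0.55 over all genes, 72.2% lower). In spt3_gcn5, at 3.05 ± 0.05 against 4.11 ± 0.07 in WT replicates 7 and 8 (SD, n = 2 each), 122 fell (-1.04, 87.3% of all genes lower). In spt8, at 5.76 ± 0.13 (SD, n = 2), 117 rose and 0 fell (0.81, 0.36 over all genes, 37.8% higher). In spt3 8 fell (0.01, 31.1% of all genes lower), in gcn5 7 fell and 1 rose (0.02, 12.5% lower and 12.6% higher), and in ubp8 1 rose (0.18, 7.98% higher). A change of all ribosomal protein messages per cell and a change of the ratio of S. cerevisiae to S. pombe cells or of RNA yield cannot be told apart in these values.

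**Figure D3:**
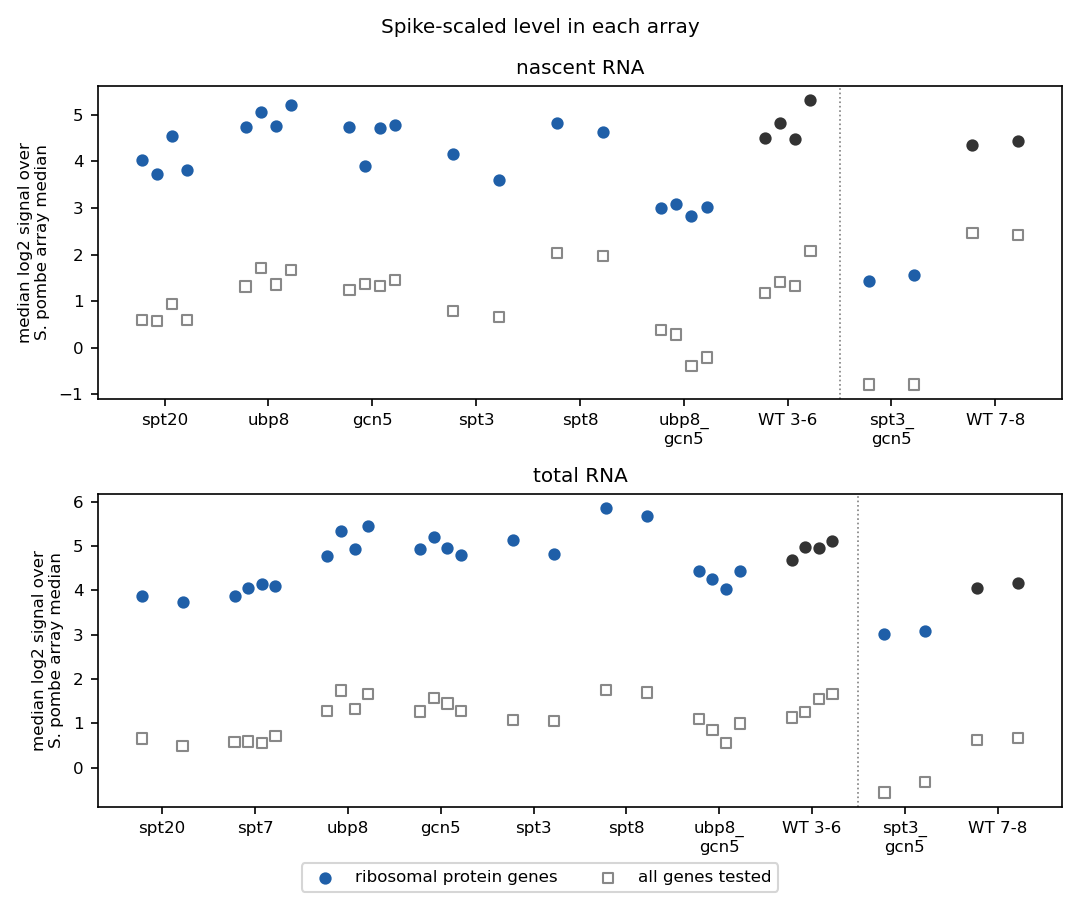
Filled circles are the median spike-scaled log2 signal of the ribosomal protein genes in each array (WT in black) and open squares the median of all genes tested; the dotted line parts the 2 array sets. In nascent RNA the ubp8_gcn5 arrays lie at 2.83 to 3.08 and the spt3_gcn5 arrays at 1.43 and 1.55, below the WT arrays of their sets, and the squares move with the circles; with the constants undone the change of ubp8_gcn5 is -0.48 in place of -1.79.

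The 2 copies of a ribosomal protein gene can be compared through the log2 ratio of A to B, in which only what moves both probe sets equally cancels. Other differences between arrays remain, as for RPL26 in total RNA of WT, with a mean ratio of 0.76 in the first set and -1.48 in the second. Of 59 annotated pairs, 49 have a probe set of its own for each copy. Only the change of the ratio is given, with its SE and without a p-value, since no sequence of the copies was available to judge how far their probes share targets. Counted were the pairs for which all arrays of a strain lay above, or all below, the WT arrays of the set in A over B. The share of single genes over the whole array that did so is given beside each. It is no like background, since what moves both copies equally cancels in a ratio but not in a single gene. A share over ratios of other genes was not computed, so a larger share of pairs does not show that ratios move more. In spt20 nascent RNA 26.5% of pairs lay above and 26.5% below (single genes 18.4% and 15.3%), and in spt20 total RNA 42.9% and 28.6% (30.0% and 37.2%). In spt7 total RNA 44.9% lay above and 28.6% below (28.7% and 26.1%). The ubp8 arrays had the fewest, with 14.3% above and 12.2% below in nascent RNA (10.8% and 6.29%) and 24.5% and 18.4% in total RNA (12.5% and 12.3%). For gcn5 the shares were 32.7% above and 22.4% below in nascent RNA (12.9% and 12.4%), and 30.6% and 22.4% in total RNA (19.5% and 19.0%). The double mutant ubp8_gcn5 had 38.8% above and 22.4% below in nascent RNA (24.5% and 17.1%), and 49.0% and 24.5% in total RNA (21.8% and 26.8%). Its nascent shares of single genes are for the deposited values. With the constants undone 631 of 4086 single genes lay above and 667 below. Without Spt3, 36.7% of pairs lay above and 26.5% below in nascent RNA (21.6% and 22.8%), and 38.8% and 32.7% in total RNA (28.1% and 21.8%). Without Spt8, 30.6% lay above and 28.6% below in nascent RNA (23.0% and 32.2%), and 42.9% and 38.8% in total RNA (28.9% and 18.8%). For spt3_gcn5, with 2 arrays against 2, it was 36.7% above and 26.5% below in nascent RNA (36.6% and 42.1%), and 36.7% and 44.9% in total RNA (36.3% and 45.5%), close to the shares of single genes in total RNA. The median size of the change of ratio was 0.111 (ubp8) to 0.307 (spt3_gcn5) in nascent and 0.151 (ubp8) to 0.288 (spt7) in total RNA.

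RPS7A over RPS7B had ratios of 0.43, 0.29, 0.54 and 0.41 in spt20 nascent RNA, against -0.16, -0.20, -0.24 and -0.26 in WT (change 0.63 ± 0.07). The single changes were 0.11 for RPS7A and -0.52 for RPS7B. In total RNA the ratios were 0.46 and 0.43 in spt20, and 0.37, 0.39, 0.47 and 0.25 in spt7, against -0.12, -0.14, -0.11 and -0.17 in WT. All spt20 and spt7 arrays lay above all WT arrays of their set, while WT replicates 7 and 8 were at 0.24 and 0.26 in total RNA. In every other strain of the first set the ratio was higher than in WT in nascent RNA too, with -0.04 to 0.01 in ubp8, 0.10 to 0.27 in gcn5, 0.21 to 0.35 in ubp8_gcn5, 0.36 and 0.40 in spt3 and 0.14 and 0.18 in spt8. These share the 4 WT arrays.

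RPL8A over RPL8B, which encode a protein of the large subunit, differed between the spt20 and spt7 arrays. The ratio was -0.32, -0.19, -0.50 and -0.35 in spt20 nascent RNA, against 0.26, 0.17, 0.23 and 0.19 in WT (change -0.55 ± 0.06). In total RNA it was -0.24 in both spt20 arrays, against 0.23, 0.23, 0.27 and 0.17 in WT (-0.47 ± 0.05), whereas spt7 was at 0.17, 0.15, 0.18 and 0.23. The spt20 arrays lay below both WT and spt7. In total RNA of spt3_gcn5 the ratio was -1.42 and -1.51, against 0.16 and 0.19 in WT (-1.64 ± 0.06). The copy-specific probe sets changed by -0.975 for RPL8A and 0.66 for RPL8B, but the brighter, shared probe set of RPL8A that serves in the gene counts changed by 0.22 (limma adjusted p = 0.074), so the direction of RPL8A is uncertain.

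RPS14A over RPS14B was higher in gcn5, and lower in spt20, than in WT. The rise was not particular to gcn5, and total RNA of spt3_gcn5 went the other way. The ratio also lay above WT in total RNA of spt8 (0.27 ± 0.09). In total RNA RPS14B was called lower in spt7, ubp8, gcn5 and ubp8_gcn5, and higher in spt3, spt8 and spt3_gcn5. There gcn5 minus ubp8 was -0.04 for RPS14A and -0.14 for RPS14B. The core mutants differed, as spt7 minus spt20 was 0.33 for RPS14A and -0.34 for RPS14B in total RNA. In nascent RNA of ubp8, RPS14A changed by 0.21 and RPS14B by -0.19. In nascent RNA the ratio was 1.57, 1.68, 1.56 and 1.52 in gcn5 and 0.71, 0.65, 0.80 and 0.79 in spt20, against 1.09, 0.86, 0.88 and 1.11 in WT. The gcn5 change was 0.60 ± 0.07, with -0.01 for RPS14A and -0.60 for RPS14B. In total RNA it was 1.63, 1.49, 1.55 and 1.55 in gcn5 and 0.73 and 0.68 in spt20, against 1.06, 1.06, 1.07 and 1.04 in WT. The 3 groups did not overlap in either fraction. In total RNA of spt3_gcn5 it was 0.84 and 0.95, against 1.80 and 1.79 in WT replicates 7 and 8.

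**Figure D4:**
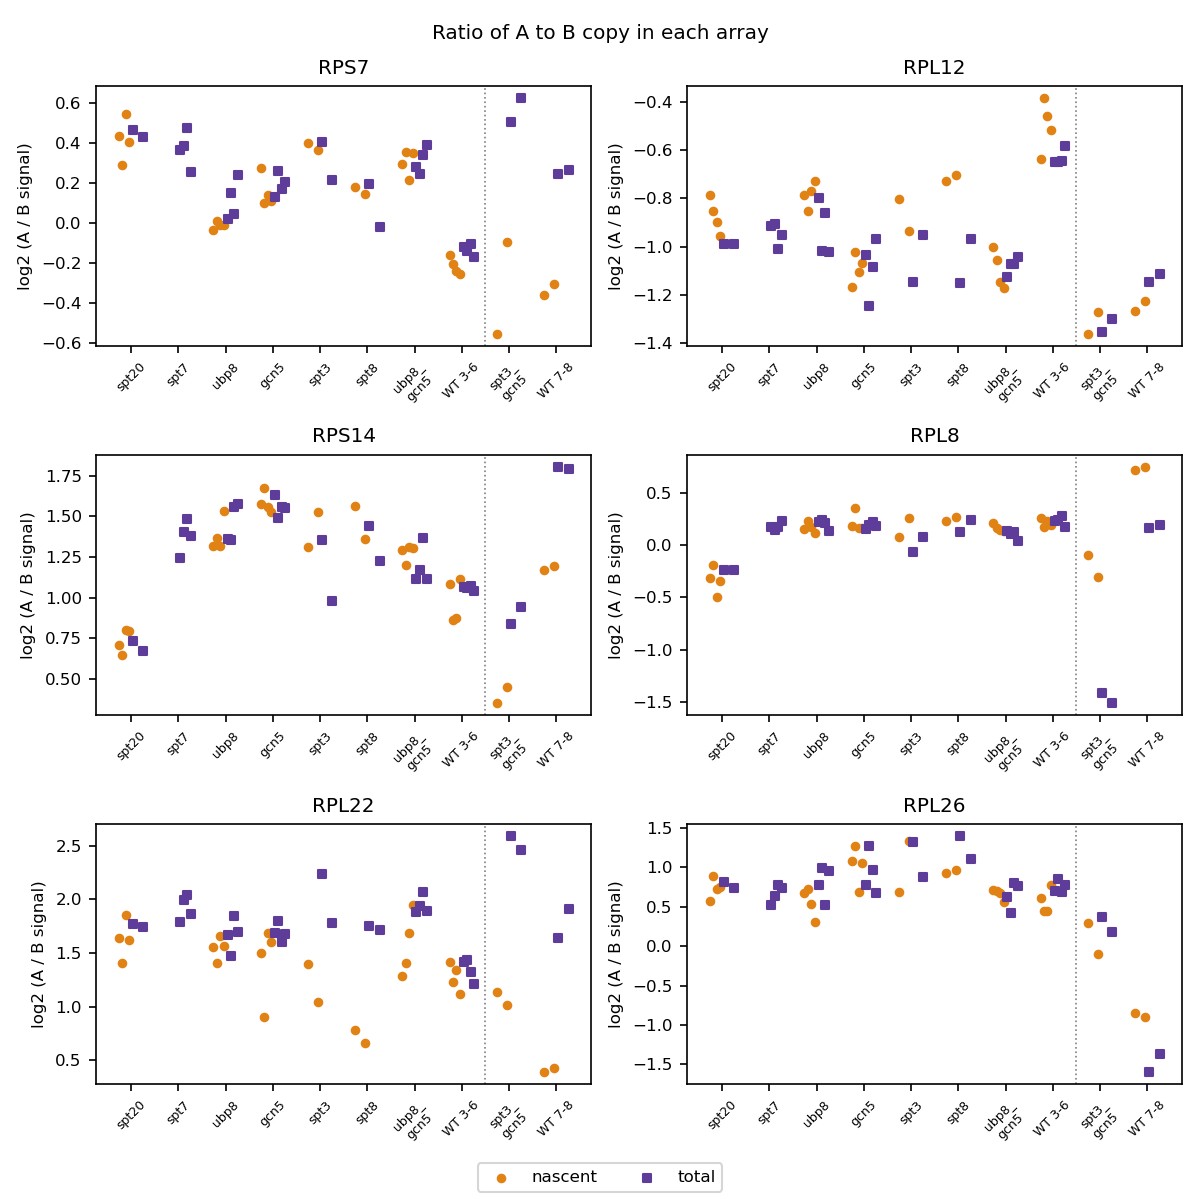
Each point is the log2 ratio of the A to the B copy in 1 array for 6 pairs, nascent RNA as circles and total RNA as squares; the dotted line parts the 2 array sets. The RPS7 ratio of spt20 lies at 0.29 to 0.54, above WT replicates 3 to 6 at -0.26 to -0.11, and the WT arrays of the 2 sets differ for RPL26.

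RPL26, RPS19, RPS28, RPS26 and RPS9 are further pairs with large changes. RPL26A over RPL26B was at 0.37 and 0.18 in total RNA of spt3_gcn5, against -1.59 and -1.36 in WT replicates 7 and 8 (1.75 ± 0.17). RPS19A over RPS19B changed by -0.81 ± 0.12 in nascent RNA of gcn5, with -0.85 for RPS19A and -0.04 for RPS19B. RPS28A over RPS28B changed by 0.60 in total RNA of ubp8_gcn5, with 0.03 for RPS28A and -0.57 for RPS28B. RPS26A over RPS26B was at 0.67 and 0.77 in total RNA of spt20, at 0.73, 0.73, 0.80 and 0.73 in spt7 and at 0.74, 0.71, 0.77 and 0.71 in ubp8_gcn5, against 0.30, 0.18, 0.20 and 0.23 in WT. The B copy of RPS26 was the one with the larger fall. RPS9A over RPS9B changed by -0.60 ± 0.12 in nascent RNA of spt20 and by -0.89 ± 0.13 in total RNA of spt3.

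For some pairs all strains of the first set lay on 1 side of WT replicates 3 to 6. RPL12A over RPL12B was at -1.17 to -0.71 in nascent RNA of these strains, against -0.64 to -0.38 in WT replicates 3 to 6 and -1.27 to -1.22 in WT replicates 7 and 8. RPL14A over RPL14B was at 0.47 to 0.97 in total RNA of the strains, against 0.36 to 0.45 in WT replicates 3 to 6 and 1.29 to 1.35 in WT replicates 7 and 8. The second set of WT arrays lay on the same side as the mutants. What sets the shared WT arrays apart was not tested.

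**Figure D5:**
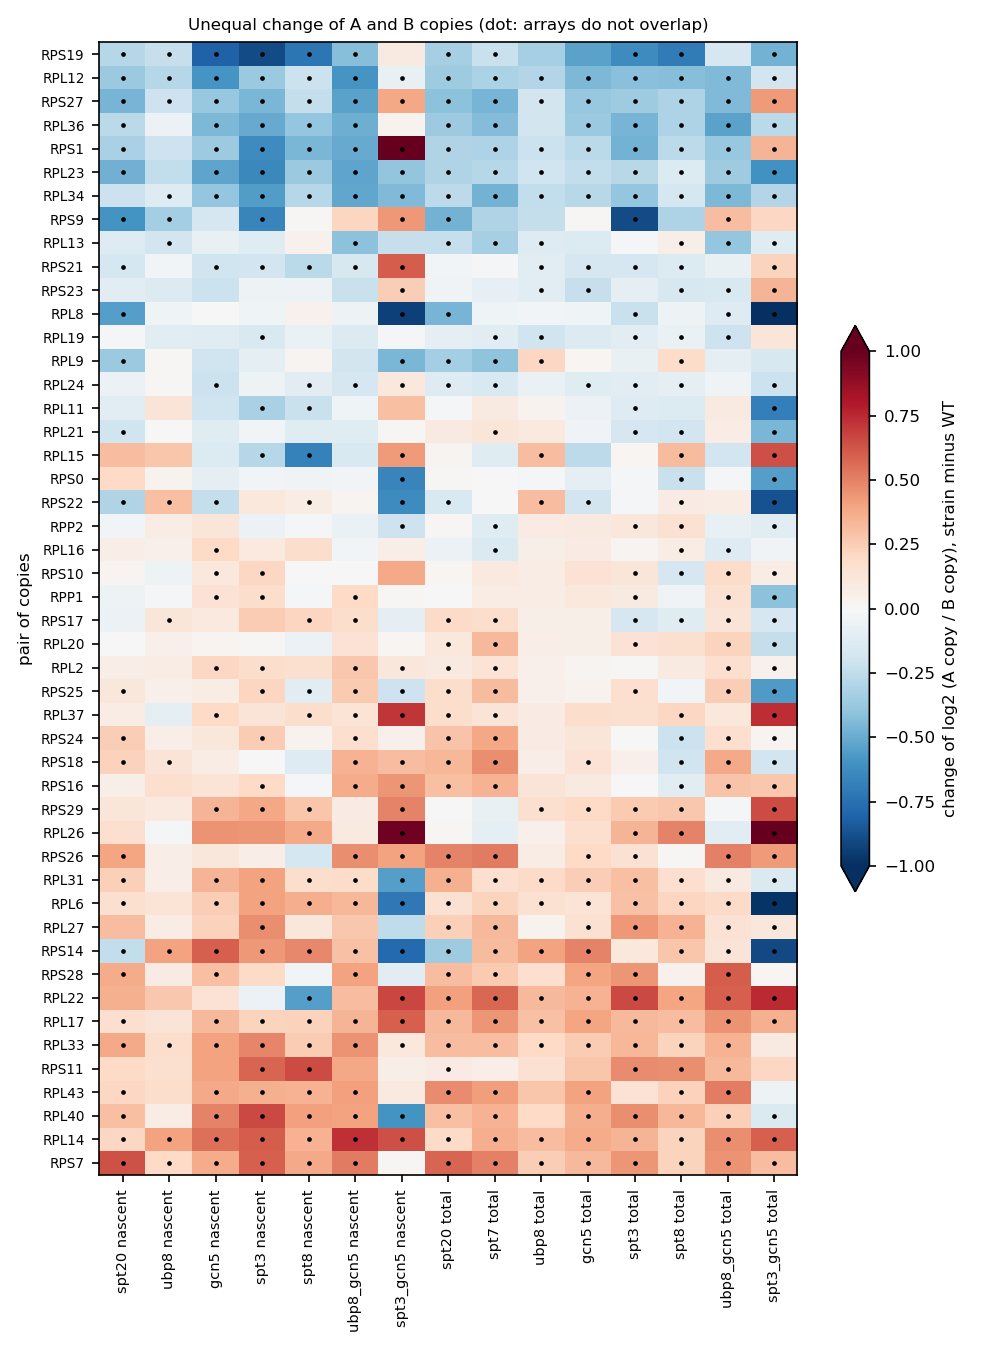
Each cell is the change of log2 A over B against WT of the same array set, for 48 of the 49 pairs (down) and each strain and fraction (across), red where A was higher relative to B and blue where it was lower, with a dot where the arrays of the strain and WT do not overlap. The rows of RPS7 and RPL12 have 1 colour across the first set of strains, while RPS14 and RPL8 differ between strains.

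Other genes of the translation apparatus were read from lists and stand beside the ribosomal protein genes. Of 111 ribosome biogenesis genes, which act in making ribosomal RNA and assembling subunits, 74 fell and 3 rose in nascent RNA of spt20 (median -0.49; 21.5% of all genes lower, 24.6% higher). There 45 fell in ubp8 (-0.32, with 4.36% of all genes lower), 57 in gcn5 (-0.31, 16.9%) and 66 in ubp8_gcn5 (-0.35, 22.8%). In these strains 0, 14 and 42 ribosomal protein genes fell. The counts of ubp8_gcn5 are for the deposited values, and with the constants undone fewer ribosomal protein genes fell, as given above. No count with the constants undone is given for the biogenesis genes. In spt8 26 of them fell and 5 rose in nascent RNA (-0.11; 26.2% of all genes lower, 16.1% higher), and 30 fell and 8 rose in total RNA (-0.10; 14.7% lower, 25.5% higher), where 111 ribosomal protein genes rose. Of 36 translation factor genes, 24 fell and 0 rose in nascent RNA of spt8 (-0.43), and 23 rose and 0 fell in total RNA (0.28), the same directions as the ribosomal protein genes, against those shares of all genes. Of 66 mitochondrial ribosomal protein genes, which serve the separate ribosomes of mitochondria, 2 fell and 8 rose in nascent RNA of spt8, and 17 fell and 1 rose in total RNA. In spt20 33 of them fell in nascent RNA (-0.31) and 54 in total RNA (-0.48), where 21.5% and 33.1% of all genes were lower. Of 12 genes for chaperones that escort ribosomal proteins, 7 fell in nascent and 9 in total RNA of spt20, against the same 21.5% and 33.1%. Of 23 regulators of ribosomal protein genes, 10 fell in each fraction of spt20, while 3 rose in nascent and 6 in total RNA, near the shares of all genes in total RNA (33.1% lower, 27.7% higher).

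The genes outside the set whose relative level followed its median most closely over 28 nascent arrays were NTF2 (r = 0.98), a nuclear transport factor, SMT3 (0.979), which encodes SUMO, and TRX1 (0.975), a thioredoxin. Over 30 total arrays they were EFB1 (0.928), an elongation factor subunit, CAF20 (0.899), which binds the cap-binding protein, and EGD2 (0.882), a subunit of the nascent polypeptide-associated complex. The ribosomal protein genes' own median r was 0.942 in nascent RNA, from -0.266 (RPP1) to 0.994, and 0.706 in total RNA, from -0.033 (RPL41A) to 0.98. These are descriptions over arrays of all strains and both array sets, which share WT arrays and set differences.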

How the data were processed

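Nascent and total RNA of a WT and 8 SAGA deletion strains were measured on Affymetrix arrays carrying probe sets of both yeasts. The authors deposited linear intensity for 10928 probe sets in 68 columns. Per the submitters' processing notes they used Affymetrix Expression Console 1.4.1. The algorithm, scaling and genome build were not given in the sources used here. Probe annotation named 1 gene for 7244 probe sets, several for 1 and none for 3683, and 12 symbols were updated. The pattern was matched to these symbols, and where a gene had several probe sets, as 47 in S. cerevisiae did, the brightest one was kept (24 of the 128 ribosomal protein genes are read by a probe set shared with other transcripts). In each fraction, the 25% of genes dimmest by mean log2 signal were not tested.

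WT replicates 1 and 2 were left out because in total RNA they equal means of replicates 3 to 6 in all 5498 S. cerevisiae probe sets. The spt7 nascent arrays were left out because their gene order was unrelated to that of the total arrays (rank correlation 0.0182 to 0.0207), and spt20 total replicates 1 and 3 because they carry SPT20 signal. One limma 3.58.1 fit per fraction (lmFit, eBayes, R 4.3.3) with array set as a block gave log2 changes, shared spread and Benjamini-Hochberg adjusted p-values over 4086 genes (4015 between fractions), at a threshold of 0.05. For pairs of copies, probe sets specific to each copy were used, and the change of their log2 ratio is given with its SE. The fits were tested on simulated data. Python 3.11.15 (scipy 1.17.1, pandas 2.3.3, numpy 2.4.6; figures in matplotlib 3.10.9) served for the rest.

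Named genes are, per strain and fraction, up to 3 rises and 3 falls of largest size past the threshold with arrays outside the WT range, up to 2 genes against the direction of most, and up to 2 pairs each way. Also named are the 3 highest and lowest between fractions in WT, the deleted genes and up to 3 genes most like the median. One pair that meets the rule is not reported here. The ribosomal protein genes and all lists were chosen with earlier results of these data known. Alternatives were no block for the array set, the replicate number as a block, averaged consecutive replicates, compared groups only, no filter on signal, mean of probe sets, quantile normalization, centring on other genes, other spike-in scalings, undone constants and each array left out. The S. pombe ribosomal protein genes as a reference, the constants undone in the comparison of fractions and in the pairs, and each WT set alone were added after seeing the data.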

Additional observations from a re-analysis of the deposited data

Results flagged for a closer look

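Within groups of 4 arrays, a value was picked out where its distance to the nearest other array was a large part of the group's range (Dixon's criterion). Of 190 groups examined 10 were picked out, and chance gives about 1 in 20. Of the 10, 7 are in gcn5 nascent replicate 2. Its spike-scaled median of the ribosomal protein genes was 3.911, where the other gcn5 arrays lay at 4.71 to 4.79. In that array the relative level was 1.63 for RPL12A, 1.36 for RPL39, 1.22 for RPL4B, 1.26 for RPS1A, 2.29 for RPS7B and 0.95 for RPS9A, each below the other gcn5 arrays. The S. pombe ribosomal protein genes of gcn5 spanned 3.59 to 4.78 in nascent RNA. RPP1 was at -0.69 in gcn5 nascent replicate 3, below the others. In total RNA, RPL22B was at 1.42 in ubp8_gcn5 replicate 3, below the others, and RPL26A at 3.94 in ubp8 replicate 4, above them.

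The nascent and total changes of a strain differed by the test of the difference itself for 35 genes in spt3, 124 in spt8 and 1 in spt3_gcn5 (limma, adjusted p under 0.05). These tests leave out the S. pombe movement. Less S. pombe, the nascent and total medians were 0.61 and 0.14 in spt3 and -0.01 and -0.19 in spt8, not lower in nascent RNA.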

How the results depend on the processing

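The choice of WT arrays moved many values. With all 6 WT arrays and no block for the array set, the numbers of ribosomal protein genes called in nascent RNA were 13 in spt20, 1 in ubp8, 3 in gcn5, 0 in spt3, 0 in spt8, 3 in ubp8_gcn5 and 0 for gcn5 against ubp8. In total RNA they were 22 in spt7, 4 in ubp8, 3 in gcn5, 55 in spt3 and 22 in ubp8_gcn5, and 1 for gcn5 against ubp8, 0 for spt8 against spt3, 8 for spt7 against spt20, 8 for ubp8_gcn5 against gcn5 and 16 for ubp8_gcn5 against ubp8. Between fractions they were 0 in spt3, 8 in spt8 and 0 in spt3_gcn5. Spike-scaled median changes in total RNA were then -0.89 in spt20, -0.63 in spt7, 0.43 in ubp8, 0.27 in gcn5, 0.27 in spt3, 1.05 in spt8, -0.41 in ubp8_gcn5 and -1.62 in spt3_gcn5. Relative nascent medians turned, to 0.0429 in ubp8_gcn5 and -0.49 in spt3_gcn5. So did nascent changes of RPS9A in spt20 (0.13), RPS10B (0.32) and RPS19A (0.29) in gcn5, RPS10B (0.0721) and RPS19A (0.18) in spt3, RPL39 in spt8 (0.22) and RPL26A (-1.0) and RPS1A (-0.37) in spt3_gcn5, and RPL26A in spt3_gcn5 total RNA (-0.26). Ratios of copies that turned were those of RPS9 in ubp8 (0.12) and RPS19 in spt8 (0.0181) in nascent RNA and RPS9 in spt20 (0.17) and RPL34 in ubp8 (0.0504) in total RNA. WT replicates 3 to 6 alone gave 0 genes between fractions. The second array set differs in the level of these genes (the report gives it); otherwise the cause was not tested.

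With the replicate number as a block the nascent counts were 4 in spt20, 1 in ubp8, 7 in gcn5, 4 in spt3, 7 in spt8, 22 in ubp8_gcn5 and 17 for gcn5 against ubp8, and the total count 51 in spt3. Deviations of same-numbered arrays had a mean r of 0.068 in nascent and -0.012 in total RNA, over 0.1 in 26 of 50 and 18 of 61 pairs, so the numbers were not taken to pair the arrays. Averaging consecutive replicates gave 4 in spt20, 8 in gcn5, 4 for gcn5 against ubp8 and 13 for spt8 against spt3 in nascent RNA, and 3 for gcn5 against ubp8, 9 for spt8 against spt3, 13 for ubp8_gcn5 against gcn5 and 29 for ubp8_gcn5 against ubp8 in total RNA. Fitting the compared groups only gave 3 in gcn5, 8 in spt3, 71 in spt3_gcn5, 5 for gcn5 against ubp8 and 4 for spt8 against spt3 in nascent RNA, 3 in ubp8, 12 in gcn5 and 45 in spt3 in total RNA, and 1 in spt3 and 7 in spt3_gcn5 between fractions.

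Quantile normalization gave 40 in spt20, 3 in ubp8, 58 in gcn5, 55 in spt3, 52 in spt8 and 44 for gcn5 against ubp8 in nascent RNA. In total RNA it gave 46 in spt20, 22 in ubp8, 49 in gcn5, 45 in spt3 (median -0.0301), 30 in spt8 (median -0.0424), 14 for gcn5 against ubp8 and 23 for spt7 against spt20. Without the filter on signal the counts were 1 in ubp8 and 102 in ubp8_gcn5 in nascent RNA and 22 for spt7 against spt20 in total RNA. With the constants undone ubp8_gcn5 had 24 and a spike-scaled median of -0.48. Without spike-in scaling the medians were -0.18 in spt20, -0.19 in spt3 and -0.77 in spt3_gcn5 in nascent RNA, and -0.42 in spt20, -0.23 in spt7, 0.41 in spt8, -0.22 in ubp8_gcn5 and -0.38 in spt3_gcn5 in total RNA. The brightest 25% of S. pombe genes gave 0.0513 in gcn5, -0.30 in spt3 and 0.64 in spt8 in nascent RNA. Less the S. pombe ribosomal protein genes, relative medians turned to 0.15 in gcn5, 0.61 in spt3 and 0.01 in ubp8_gcn5 in nascent RNA, and to 0.52 in spt20, 0.58 in spt7, -0.11 in ubp8, -0.08 in gcn5, -0.19 in spt8 and 0.33 in ubp8_gcn5 in total RNA. For none of these was the cause tested. Centring on other genes and the mean of probe sets turned no named gene or median, and were not run on pairs.

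Leaving out 1 array at a time, the counts in nascent RNA ran over 4 to 7 in spt20, 0 to 1 in ubp8, 8 to 23 in gcn5, 2 to 32 in spt3, 9 to 85 in spt8, 21 to 54 in ubp8_gcn5, 15 to 22 in spt3_gcn5, 2 to 23 for gcn5 against ubp8 and 0 for spt8 against spt3. In total RNA they ran over 59 to 102 in spt20, 36 to 49 in spt7, 8 to 13 in ubp8, 16 to 31 in gcn5, 8 to 106 in spt3, 79 to 114 in spt8, 32 to 50 in ubp8_gcn5, 39 to 45 in spt3_gcn5, 3 to 11 for gcn5 against ubp8, 2 to 9 for spt8 against spt3, 7 to 66 for spt7 against spt20, 16 to 31 for ubp8_gcn5 against gcn5 and 32 to 67 for ubp8_gcn5 against ubp8. Between fractions they ran over 0 in spt20, 0 in ubp8, 0 in gcn5, 1 to 77 in spt3, 122 to 124 in spt8, 0 to 1 in ubp8_gcn5, 0 to 1 in spt3_gcn5 and 124 to 125 for the 2 fractions of WT. Spike-scaled medians ran over -0.94 to -0.60 in spt20, 0.04 to 0.33 in ubp8, -0.37 to -0.06 in gcn5, -1.23 to -0.66 in spt3, -0.14 to 0.13 in spt8, -1.89 to -1.61 in ubp8_gcn5 and -2.94 to -2.87 in spt3_gcn5 in nascent RNA, and over -1.23 to -1.06 in spt20, -0.96 to -0.81 in spt7, 0.07 to 0.30 in ubp8, -0.07 to 0.08 in gcn5, -0.14 to 0.16 in spt3, 0.72 to 0.88 in spt8, -0.73 to -0.55 in ubp8_gcn5 and -1.08 to -1.01 in spt3_gcn5 in total RNA. The report names the arrays that moved a count by over 1.5 times. A lone array in such a fit is assumed to vary like the other groups. Values hold no background reading, so how far dim genes lie above it is unknown.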
